A study of Mus musculus with 50 samples.

Results

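H3K27me3 was profiled by ChIP-seq in mouse embryonic stem cells (ESCs) that lack *Ezh2*, and the peaks described here are those called in these cells at places with no peak in the wild-type cells. New peaks were selected on the peak calls themselves. A peak of the *Ezh2* KO H3K27me3 list was taken as new when it shared not even 1 bp with a peak of the WT H3K27me3, WT SUZ12 or *Ezh2* Y726D H3K27me3 list. Of the 8956 peaks of the *Ezh2* KO list, 2351 were new (26.3%), and the other 6605 overlapped at least 1 of these 3 lists. Of all 8956 peaks, 5300 overlapped WT H3K27me3, 3436 overlapped WT SUZ12 and 1026 overlapped *Ezh2* Y726D H3K27me3, and 1006 peaks were left out because of the *Ezh2* Y726D list alone. Absence from these 3 lists was fixed by the rule and is no result.

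The WT line was E14TG2a, a male ESC line grown with LIF and the 2i inhibitors, and all mutants were clones derived from it with CRISPR/Cas9. *Ezh2* KO cells carry a deletion that removes *Ezh2* and keep *Ezh1*. *Ezh1/2* dKO cells lack both genes. *Ezh2* Y726D cells, with a catalytically dead EZH2, and *Ezh2* R685C cells, with another point mutation of EZH2, were both made in *Ezh1* KO cells, so they also lack EZH1. HA was profiled in *Ezh1/2* dKO cells that re-express HA-tagged EZH1 and, as the control, in *Ezh1/2* dKO cells without it. For each line and target 1 peak list was used, with no replicate list, so no difference between lines could be tested, and a share of overlapping peaks also depends on how long each list is. RNA-seq had 2 libraries for WT and for each mutant line other than *Ezh2* R685C.

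Polycomb Repressive Complex 2 (PRC2) methylates lysine 27 of histone H3, with EZH1 or EZH2 as its catalytic subunit and SUZ12 as a core subunit that both forms need. In ESCs, trimethylation (H3K27me3) lies mainly over CpG-rich promoters of silent developmental genes, dimethylation (H3K27me2) spreads over much of the untranscribed genome, and monomethylation (H3K27me1) lies over transcribed gene bodies. CpG-rich DNA attracts PRC2. H3K27 acetylation (H3K27ac), found at active promoters and enhancers, occupies the same lysine and excludes its methylation.

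The sequences below show the range of DNA under the new peaks, each as 200 bases around the summit of a peak on the + strand of mm9, with every CG in capitals. The first 3 belong to strong peaks and the fourth to the strongest new peak at a *Hoxb* gene. The fifth is under the strongest peak over 50 kb from any WT peak with no CG in the 300 bases centred on its summit. The last 2 belong to genes whose RNA fell in *Ezh2* KO cells.
chrX:98891246-98891445 (strongest new peak): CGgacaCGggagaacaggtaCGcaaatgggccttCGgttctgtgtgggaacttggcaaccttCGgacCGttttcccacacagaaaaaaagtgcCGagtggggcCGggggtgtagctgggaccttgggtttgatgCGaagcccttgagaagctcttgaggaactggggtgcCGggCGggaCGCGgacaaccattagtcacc
chr8:47297691-47297890 (*Slc25a4*): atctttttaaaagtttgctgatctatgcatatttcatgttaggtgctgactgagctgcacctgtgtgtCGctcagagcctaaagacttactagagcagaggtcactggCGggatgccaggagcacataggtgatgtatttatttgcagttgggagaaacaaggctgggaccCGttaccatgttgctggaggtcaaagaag
chr14:58143438-58143637 (*Il17d*): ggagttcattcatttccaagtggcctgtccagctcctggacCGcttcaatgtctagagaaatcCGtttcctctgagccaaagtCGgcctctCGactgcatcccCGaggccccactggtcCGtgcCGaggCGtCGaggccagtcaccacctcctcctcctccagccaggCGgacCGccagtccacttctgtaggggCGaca
chr11:96217867-96218066 (*Hoxb2*): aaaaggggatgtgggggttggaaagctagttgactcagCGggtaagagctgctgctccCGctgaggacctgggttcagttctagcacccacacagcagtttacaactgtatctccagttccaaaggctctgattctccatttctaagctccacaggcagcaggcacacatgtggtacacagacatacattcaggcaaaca
chr4:33912660-33912859 (no CG): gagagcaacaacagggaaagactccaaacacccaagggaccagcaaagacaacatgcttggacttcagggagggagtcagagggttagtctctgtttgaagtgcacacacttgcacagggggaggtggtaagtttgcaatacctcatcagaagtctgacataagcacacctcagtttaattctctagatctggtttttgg
chrX:163819905-163820104 (*Prps2*): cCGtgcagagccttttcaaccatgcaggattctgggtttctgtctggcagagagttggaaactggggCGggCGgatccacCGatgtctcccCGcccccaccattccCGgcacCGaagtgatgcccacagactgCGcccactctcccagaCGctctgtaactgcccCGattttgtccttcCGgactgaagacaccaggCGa
chr12:82127991-82128190 (*Smoc1*): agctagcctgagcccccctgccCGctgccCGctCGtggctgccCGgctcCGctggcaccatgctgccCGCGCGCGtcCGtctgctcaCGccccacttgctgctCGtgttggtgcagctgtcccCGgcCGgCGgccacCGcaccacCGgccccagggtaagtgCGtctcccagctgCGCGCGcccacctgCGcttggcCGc
These windows held between 0 and 23 CG dinucleotides. A CG was present at least once in the 200-base window of 2061 of the 2351 new peaks (87.7%), of 94.7% of the other peaks and of 92.8% of all *Ezh2* KO peaks. Windows with 10 or more CG made up 11.6% of the new peaks, 37.9% of the other peaks and 31.0% of all peaks. The *Smoc1* window was thus far richer in CG than the median new peak, which held 3, whereas the window at *Slc25a4* held 3 despite being under one of the strongest new peaks.

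New peaks were narrower and weaker than the other *Ezh2* KO peaks. Their median -log10 p, as MACS2 gave it in calling the *Ezh2* KO list, was 12.9 (quartiles 11.5 to 17.8). It was 28.0 (14.1 to 95.3) for the other peaks. Their median fold enrichment was 7.49 against 12.3, and their median width 415 bp (quartiles 282 to 694) against 1211 bp. The list starts at a -log10 p of 10, so many new peaks lay just above the limit. Still, 472 new peaks (20.1%) had a p of at most 1e-20, 70 of at most 1e-50 and 15 a -log10 p of 100 or more. In the 300 bases centred on the summit they held a median of 4 CpG and 50.3% GC, against 10 CpG and 56.3% GC in the other peaks. At 10 or more CpG were 476 of the 2351 (20.2%, Wilson 95% CI 18.7 to 21.9, for counting error only) against 52.6% of the other peaks. These values come from the list that chose the peaks, so they are a description. Just inside the rule, 3 new peaks touched an excluding peak end to end with a gap of 0 bp, at -log10 p of 18.6, 10.48 and 11.8. Just outside it, the 3 peaks with the smallest overlap shared 1, 1 and 2 bp, at -log10 p of 10.8, 10 and 10.4.

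New peaks lay both near the listed WT peaks and far from them. The WT H3K27me3 list was weak, with a median -log10 p of 13.2 and a maximum of 72.3. The maximum was 541 in the *Ezh2* KO list, 754 in that of *Ezh2* R685C and 445 in that of *Ezh2* Y726D. Absence from the WT list, or distance from it, therefore does not show that the mark was absent in WT cells. WT H3K27me3 lay within 1 kb of 696 new peaks (29.6%), 1 to 5 kb from 475 (20.2%), 5 to 50 kb from 447 (19.01%) and over 50 kb from 733 (31.2%). The median distance was 5144 bp, over the 2350 new peaks on a chromosome with a WT peak.

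The strongest new peaks lay at genes of varied function. The strongest of all, with a -log10 p of 189, was on chromosome X (98890680-98891680), 3490 bp from the start of *Gm14845* and 451 bp from a WT peak. The promoter of *Slc25a4*, which encodes the mitochondrial ADP/ATP carrier of muscle and heart, held a peak of 5532 bp with a -log10 p of 179. *Zfp516*, a zinc-finger transcription factor, carried a promoter peak with a -log10 p of 169. On chromosome 14, the promoter of the cytokine gene *Il17d* (147) and an intron of the neighbouring methyltransferase gene *N6amt2* (141) were each over 10 kb from any WT peak. A peak on chromosome 10 (22599615-22603786) with a -log10 p of 144 lay outside genes, 59680 bp from the nearest transcription start site (TSS), and held 2 CpG around its summit. *Tmem125* (137), *Repin1* (134, a zinc-finger gene), *B630019K06Rik* on X (132) and the exon of *Hspa1b* (124), an inducible heat-shock chaperone with a near-identical neighbouring copy, completed the top 10.

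At the far end, the weakest new peaks had a -log10 p of 10 and included one in an intron of *Ecel1*, a neuronal endopeptidase, 144 bp from a WT peak. The peaks farthest from WT H3K27me3 were mostly on X. One in an intron of *Il1rapl1*, which encodes a synaptic membrane protein, was 6048146 bp away with a -log10 p of 22.8, and another at a TSS of the same gene was 5171645 bp away. *Slitrk4*, a further neuronal membrane protein gene on X, had a promoter peak with a -log10 p of 74.1 at a distance of 4706105 bp.

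Many new peaks came in groups. Joining those at most 20 kb apart gave 1332 groups, of which 942 were single peaks and 118 held 4 or more. The largest, with 30 peaks over 143615 bp of chromosome 7 (150496822-150640436), covered the imprinted genes *Kcnq1*, a potassium channel, and *Cdkn1c*, an inhibitor of cyclin-dependent kinases. All of its peaks were weak, with a -log10 p of at most 19.1. The next, with 21 peaks on chromosome 3 and a -log10 p of up to 92.8, lay at *Lef1*, a transcription factor of the Wnt pathway. Of the 7 groups of 14 or more peaks, 3 were on X, with 15 peaks at *Zcchc13*, 14 at *Nhsl2* and 14 at *Efnb1*, the gene of the ligand ephrin-B1. Groups of 11 to 15 peaks also lay at *Trio*, a guanine nucleotide exchange factor, at *Tcfap2c*, a transcription factor of trophoblast and germ cells, at the imprinted gene *Peg12*, at *Slc25a4*, at the kinesin gene *Kif21a*, at the kinase gene *Stk32c* and at *Il17d* with *N6amt2*. These groups were picked for their size after it was seen.

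The share of new peaks was higher on chromosome X than on any autosome. There, 175 of the 294 *Ezh2* KO peaks were new (59.5%, 95% CI 53.8 to 65.0), against 2175 of 8655 on the autosomes (25.1%, CI 24.2 to 26.1), where the share ran from 12.3% on chromosome 19 to 30.6% on chromosome 17. The Y chromosome held 1 new peak of 7, at 2884594-2884857, named here after its value was seen. The WT list was thin on X, with 87 peaks or 0.522 per Mb against 6.74 per Mb on the autosomes. The *Ezh2* KO list held 1.76 peaks per Mb on X against 3.50 on the autosomes, and the *Ezh2* R685C list 2.36 against 8.84. New peaks on X were also stronger and wider, with a median -log10 p of 16.6 and a median width of 610 bp. On the autosomes these medians were 12.9 and 401 bp. This was not particular to new peaks, as the other peaks on X had medians of 62.3 and 1801 bp. Over all other peaks the medians were 28.0 and 1211 bp. Of the new peaks on X, 72 of the 175 (autosomes 400 of 2175) had a p of at most 1e-20. Of the 175, 105 lay over 50 kb from any WT peak, and 16 of the 70 new peaks with a p of at most 1e-50 were on X. The part of the thin WT list on X in this share was not tested.

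**Figure D1:**
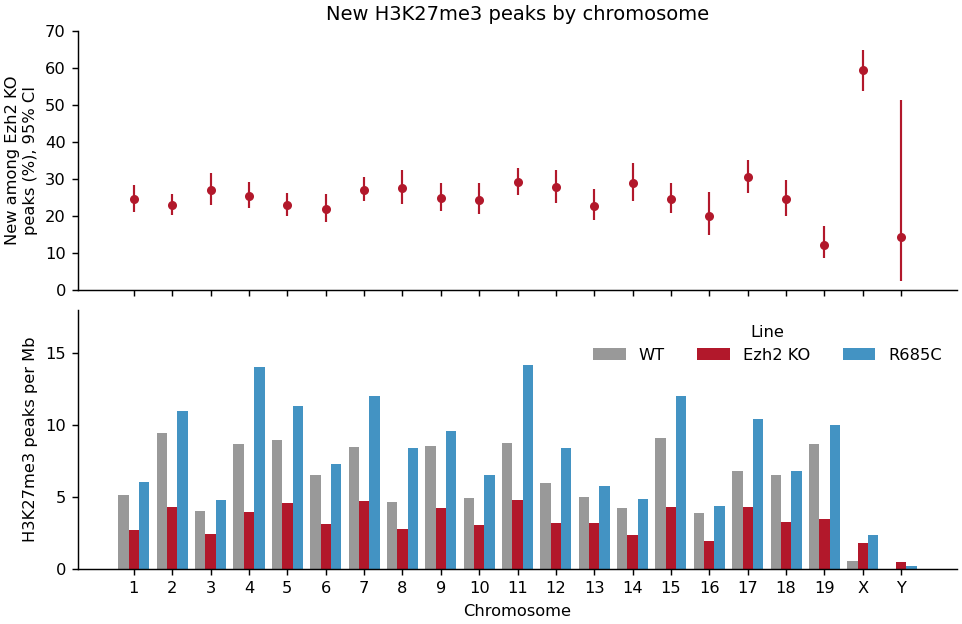
Top, percent of the *Ezh2* KO H3K27me3 peaks of each chromosome that were new (points, with Wilson 95% confidence intervals). Bottom, H3K27me3 peaks per Mb of each chromosome in the WT, *Ezh2* KO and *Ezh2* R685C lists, where X stands apart with 59.5% new peaks and 0.522 WT peaks per Mb.

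New peaks were less often at promoters. A TSS lay within 5 kb of 914 of the 2351 (38.9%, 95% CI 36.9 to 40.9), against 59.0% of all *Ezh2* KO peaks and 66.2% of the other peaks. Within 1 kb the shares were 20.5% and 51.8%. Of the peaks over 1 kb from a TSS, exons held few (5.10% of all new peaks against 5.77% of the other peaks), introns held 29.3% against 16.8%, and intergenic DNA 45.1% against 25.7%. New peaks within 5 kb of WT H3K27me3 had a TSS within 5 kb in 47.0% of cases and those farther away in 30.8%, and 92 of the 175 on X did (52.6%). Among the 70 strongest, the share was 51.4%.

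In all, 881 of 33887 annotated genes (2.60%) had a new peak within 5 kb of their TSS, and 659 of 22225 protein-coding genes did (2.97%). In the families of developmental regulators, the usual PRC2 targets, these shares are read beside the 2.60% of all genes. Among the 41 *Hox* genes, which set position along the body axis, 7 had one (17.1%, *Hoxa4*, *Hoxa13*, *Hoxb2*, *Hoxb3os*, *Hoxd3*, *Hoxd8* and *Hoxd9*), whereas 38 had another *Ezh2* KO peak. The strongest new peak at each lay at most 553 bp from a WT peak. That near *Hoxb2* and *Hoxb3os* on chromosome 11 (96217050-96219136) had a -log10 p of 74.4, and its window printed above held 2 CG. *Sox* genes had 3 of 19 (15.8%, *Sox5*, *Sox9* and *Sox30*), *Fox* genes 4 of 47 (8.51%), *Fgf* genes 3 of 31 (9.68%), *Wnt* genes 2 of 19 (10.5%, *Wnt3a* and *Wnt8a*) and *Gata* genes 1 of 9 (*Gata6*, a master factor of primitive endoderm). *Bmp* genes had 2 of 15, *Pou* genes 2 of 16, *Pax* genes 1 of 11, *Tbx* and *Nkx* genes 1 of 15 each, *Irx* genes 1 of 6, *Zic* genes 1 of 5 and *Olig* genes 1 of 3. *Lhx*, *Dlx*, *Neurog*, *Msx* and *Cdx* genes and the sine oculis homeobox family, of at most 8 genes each, had 0. These shares were not tested. None of the 12 PRC2 subunit genes had one.

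Protocadherins, adhesion molecules of neurons, had the highest share of the families taken as tandem, with a new peak at 16 of 37 genes whose symbol starts with Pcdh (43.2%). Of these, 13 were *Pcdhb* genes of a tandem cluster, while *Pcdh20* lies outside the clusters. Another *Ezh2* KO peak lay at 27 of the 37. Other tandem families had a new peak at lower shares of their genes, to be read beside the 2.60% of all genes. These were 3 of 1249 olfactory receptor genes (0.240%), 0 of 433 vomeronasal receptor genes, 6 of 105 keratin genes (5.71%) and 9 of 374 *Zfp* genes (2.41%). Of 29 imprinted genes, 5 had a new peak (*Gnas*, *H19*, *Igf2*, *Phlda2* and *Sfmbt2*), and 19 had another *Ezh2* KO peak. The peak at *Gnas*, which encodes a G protein subunit, had a -log10 p of 52.6 and no *Ezh2* R685C peak on it. Of 15 germline genes known to be silenced by DNA methylation, 3 had a new peak at the promoter, *Dazl*, *Ddx4* and *Mael*, with 31, 38 and 30 CpG in 300 bases, and each also carried an *Ezh2* R685C peak. Neighbouring genes can share a peak, so these counts are not of independent sites.

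*Ezh2* R685C H3K27me3 lay on many of the new peaks. Of all *Ezh2* KO peaks, 68.5% overlapped an *Ezh2* R685C H3K27me3 peak, and of the new peaks 1061 did (45.1%, 95% CI 43.1 to 47.2), against 5073 of the other peaks (76.8%). The *Ezh2* R685C list was not part of the rule. It was also the longest H3K27me3 list, with 22245 peaks against 16754 in WT, and 13258 of them lay off the 3 lists of the rule. The overlap rose with the strength of the new peak, from 38.9% at a -log10 p under 12 through 46.9% at 15 to 20 and 63.0% at 30 to 50 to 82.9% at 50 or more. In the same bins the other peaks reached 44.9%, 64.6%, 93.0% and 98.7%, so new peaks were overlapped less often at each of these strengths. The share was 48.5% for new peaks within 5 kb of WT H3K27me3, 41.8% for those farther away, 39.2% for those over 50 kb away, 42.9% on X and 45.3% on the autosomes. With the strongest *Ezh2* R685C peak taken on each, its median -log10 p was 29.9 on new peaks and 87.4 on the other peaks. Over all single peaks of the *Ezh2* R685C list the median was 16.8.

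The overlap was uneven among the strong sites and groups. *Slc25a4*, *Tmem125* and the strongest peak on X had *Ezh2* R685C peaks with a -log10 p of 223, 245 and 192. *Il17d* and the intergenic peak on chromosome 10 had weak ones, of 22.7 and 11.1. Of the 30 new peaks at *Kcnq1* and *Cdkn1c*, 17 were overlapped, of the 21 at *Lef1* 5, and of the 14 at *Nhsl2* 0. Values of different libraries depend on their unknown depths, so the -log10 p are set side by side and not compared by a test.

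*Ezh1/2* dKO cells, which have no H3K27 methyltransferase of PRC2, had only 53 H3K27me3 peaks. Of all *Ezh2* KO peaks 0.469% overlapped one, and of the new peaks 1 did. It was a peak of 395 bp on chromosome 4 (145038642-145039036) in an intron of *Gm13230*, with no listed H3K27me2 region of WT or *Ezh2* KO cells, named here because it was the single one.

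SUZ12 was rarely called at the new peaks, but the rule, which uses WT SUZ12, fixes much of this. In *Ezh2* KO cells, 11.4% of all H3K27me3 peaks overlapped a SUZ12 peak of the same cells and 0 of the 2351 new peaks did, which allows a share of up to 0.128%. Yet only 1 of the 1578 *Ezh2* KO SUZ12 peaks lay off the 3 lists of the rule, so nearly none could have met a new peak. The same holds for *Ezh1/2* dKO cells (0 new peaks, 2.88% of all peaks), where 1 of 317 SUZ12 peaks lay off these lists. *Ezh2* Y726D SUZ12, with 389 of 3366 peaks off the lists, overlapped 22 new peaks (0.936%, against 23.4% of all peaks). *Ezh2* R685C SUZ12, with 97 of 3231 peaks off the lists, overlapped 35 (1.49%, against 25.7%). Of these 97 peaks, 38 lay on new peaks. Over the 4 mutant lines, SUZ12 met 52 new peaks (2.21%, CI 1.69 to 2.89, against 31.2% of all peaks).

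The new peaks with SUZ12 included strong and weak ones. SUZ12 of any mutant line lay on 13 of the 70 new peaks with a -log10 p of 50 or more. It also lay on 14 of the 916 under 12. The strongest peak on X, *Slc25a4*, *Tmem125* and *H2-Q4*, a class I histocompatibility gene of a family of close copies, had *Ezh2* R685C SUZ12. SUZ12 of both *Ezh2* Y726D and *Ezh2* R685C lay on the promoter peak of *Repin1*, on an exon of *Zfp334* and on an intergenic peak on X (96411256-96413448) in the group at *Efnb1*. Both also lay on weak new peaks, at *Gm14114* (-log10 p of 11.4) and at *Gm17470* and *Mir1900* (10.4).

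HA-EZH1, the tagged enzyme put back into *Ezh1/2* dKO cells, was called at few new peaks. Of all *Ezh2* KO peaks 24.8% overlapped an HA peak and of the new peaks 14 did (0.595%, CI 0.355 to 0.997), against 33.4% of the other peaks. Off the lists of the rule lay 1298 of the 4429 HA peaks (29.3%) and 1202 of the 1291 HA peaks of the untagged control (93.1%). All 14 were within 5 kb of WT H3K27me3, against 0 of the 1180 new peaks farther away. One was the strong peak in an intron of *Rap1gap2*, a GTPase-activating gene. In the untagged control, HA peaks met 0.782% of all *Ezh2* KO peaks and 5 new peaks (0.213%), at *Rai1*, *Tap2*, *Slpi* and 2 intergenic places. These 5 were named after their values were seen.

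H3K27ac was uncommon at new peaks in each line. In *Ezh2* KO cells it met 12 (0.510%, against 0.659% of all peaks) and in *Ezh1/2* dKO cells 20 (0.851%, against 3.13%). In *Ezh2* Y726D cells it met 84 (3.57%, against 11.9%) and in *Ezh2* R685C cells 25 (1.06%, against 1.82%). The last 2 lists were the longest, with 40829 and 41185 peaks. In any of the 4 lines, 93 new peaks had H3K27ac (3.96%, against 12.8% of all peaks), among them *Il17d* and *Repin1* in *Ezh2* Y726D cells. In *Ezh2* KO cells the share at new and at other peaks (0.712%) differed by less than 1 percentage point.

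**Figure D2:**
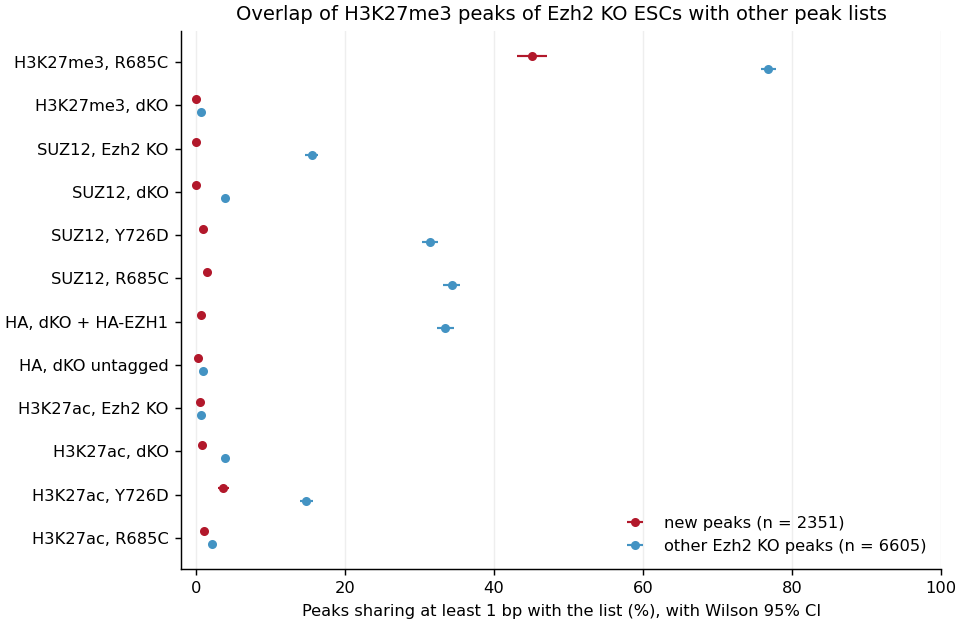
Percent of the 2351 new and the 6605 other *Ezh2* KO H3K27me3 peaks that overlapped a peak of each list by 1 bp, with Wilson 95% confidence intervals that cover counting error only. *Ezh2* R685C H3K27me3 met 45.1% of the new peaks, and each SUZ12, HA and H3K27ac list met under 4%.

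H3K27me2 regions were listed over most of the new peaks in *Ezh2* KO cells and over few of them in WT cells. On the 19 chromosomes with H3K27me2 regions in all 4 lines, which hold 2249 new peaks, *Ezh2* KO regions overlapped 2018 (89.7%, CI 88.4 to 90.9) and WT regions 325 (14.5%). Of the 2249, 1732 (77.0%) met a region of the *Ezh2* KO list and none of the WT list, 286 (12.7%) met both, 39 (1.73%) the WT list only and 192 (8.54%) neither. The WT regions here were weak, so absence from the WT list does not show that the mark was absent. By bases, *Ezh2* KO regions covered 93.6% of the new peaks against 16.2% of the genome, and WT regions 9.17% against 14.2%. *Ezh1/2* dKO regions covered 25.7% of new peak bases (genome 24.8%) and *Ezh2* Y726D regions 29.4% (genome 24.3%). The paper reports that bulk H3K27 methylation was lost in both of these mutants, so their regions need not hold H3K27me2. Of the bases of the other *Ezh2* KO peaks, 94.5% were covered in *Ezh2* KO cells and 1.56% in WT cells.

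The regions themselves differed between the lines. *Ezh2* KO regions on new peaks had a median width of 20622 bp and a median -log10 p of 4.60, and WT regions 1298 bp and 1.43. Within the broad regions, MACS2 marks blocks of stronger enrichment. *Ezh2* KO blocks covered 55.8% of new peak bases against 0.833% of the genome, while WT, *Ezh1/2* dKO and *Ezh2* Y726D blocks covered at most 0.0461%. New peaks within 5 kb of WT H3K27me3 had *Ezh2* KO H3K27me2 in 98.6% of cases and those farther away in 81.0%. On X, 171 of 175 did (97.7%), and 3 of 175 met a region of the WT list.

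**Figure D3:**
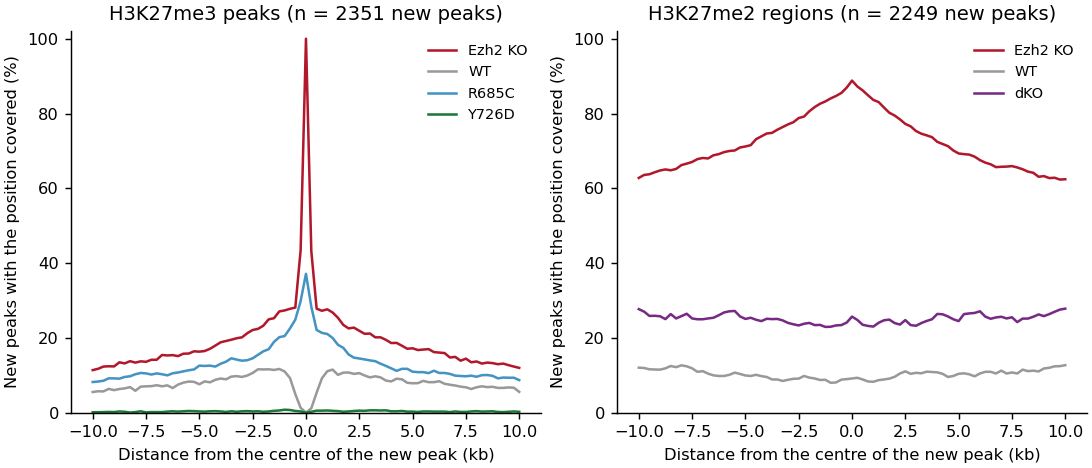
Percent of new peaks covered by each list at distances up to 10 kb on either side of the peak centre, for H3K27me3 (left, lines for *Ezh2* KO, WT, *Ezh2* R685C and *Ezh2* Y726D) and H3K27me2 (right, *Ezh2* KO, WT and *Ezh1/2* dKO). *Ezh2* KO H3K27me2 covered 88.8% at the centre and 62.4% at 10 kb, and *Ezh2* R685C H3K27me3 covered 37.1% at the centre and fell off within a few kb.

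Around the new peaks, the listed H3K27me2 regions of *Ezh2* KO cells reached much farther than the listed H3K27me3 peaks. The regions are broad calls from a -log10 p of 1.01 and the peaks narrow calls from 10. Their widths are thus unlike measures, and a difference in spread of the marks themselves was not tested. Regions covered 88.8% of the centres and still 62.8% and 62.4% of the positions 10 kb to either side, whereas WT H3K27me2 was lower at the centre (9.16%) than 10 kb away (12.05% and 12.7%). On the side of lower coordinates, WT H3K27me3, absent at the centres by the rule, covered 10.6% at 2.5 kb and 5.53% at 10 kb.

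H3K27me1 was compared on the 9 chromosomes present in all 4 lists, with 1351 new peaks. *Ezh2* KO regions covered 46.8% of new peak bases, against 27.2% of the other peaks and 18.8% of the genome. WT regions covered 5.55% (genome 14.5%), *Ezh1/2* dKO regions 14.6% (genome 11%) and *Ezh2* Y726D regions 24.0% (genome 12.6%). On X only 8.87% of new peak bases had *Ezh2* KO H3K27me1. Stronger blocks of H3K27me1 covered 0.123% of new peak bases in *Ezh2* KO cells (genome 0.0261%), against 46.8% for whole regions. WT blocks covered more, 0.775% (genome 0.307%), so by blocks the order of WT and *Ezh2* KO was reversed. *Ezh1/2* dKO blocks covered 0.0316% and *Ezh2* Y726D blocks 0.0455%.

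Accessible chromatin, by ATAC-seq, covered 40.1% to 45.8% of new peak bases in the 4 lines by whole regions. WT regions covered 43.8% of new peak bases, those of *Ezh2* KO cells 40.1%, *Ezh1/2* dKO regions 44.6% and *Ezh2* Y726D regions 45.8%, above the 22.7% to 24.3% of the genome and below the 55.1% to 58.6% of the other peaks. Blocks of stronger enrichment covered far less, with 0.766% of new peak bases in *Ezh2* KO cells against 0.403% for WT blocks, 0.488% for *Ezh2* Y726D blocks and 0.249% for *Ezh1/2* dKO blocks, where they covered 0.0731% to 0.132% of the genome.

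**Figure D4:**
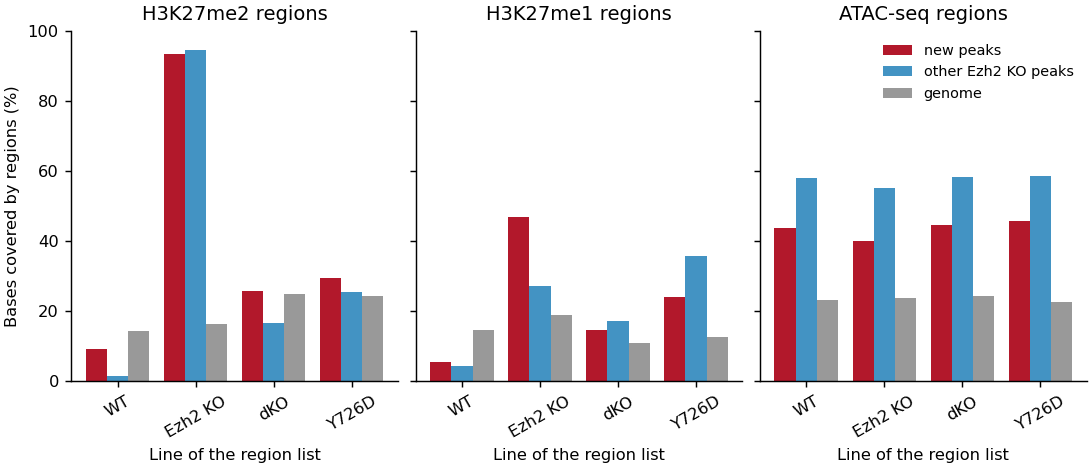
Percent of bases covered by H3K27me2, H3K27me1 and ATAC-seq regions of each of 4 lines, for new peaks, other *Ezh2* KO peaks and the genome. H3K27me2 of *Ezh2* KO cells covered 93.6% of new peak bases against 9.17% in WT.

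RNA-seq, which the rule did not use, was then read at the genes with a new peak within 5 kb of a TSS. Of the 881 genes, 601 were in the RNA table and 367 had a mean normalized count of at least 5 over the 8 libraries and were tested with limma, and 234 were below this filter. Libraries held 3604123 to 5181553 reads. The labels were checked first with *Ezh2*, at 598 and 546 normalized counts in the WT libraries and 1.05 and 0.968 in *Ezh2* KO (log2 fold change -8.16 ± 0.39, SE, limma adjusted p = 4.7e-05). The labels do not say that the 2 libraries of a line came from separate cultures, so p-values measure the spread between these libraries, which may be technical. In such bulk samples, fewer expressing cells and less RNA per cell cannot be told apart.

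Few of these genes changed in *Ezh2* KO cells, and those called all fell. Of all 13872 genes tested, 56 were called at an adjusted p under 0.1 and a log2 fold change of at least 1 in size (0.404%), and of the 367 genes at new peaks 6 were (1.63%). Without WT replicate 1 or either *Ezh2* KO library 0 were called, and the fit without WT replicate 2 called 13, of which 2 were higher. All 6 fell, where 0.310% of all genes did, and 0 rose, where 0.0937% of all genes did. With limma, 8 of the 367 had a positive fold change and 52 a negative one at an unadjusted p under 0.05. Over all 13872 genes these numbers were 573 and 652. edgeR called 3 of the 367, with 0 rises, and 30 of all genes. DESeq2 called 9 of the 367, with 0 rises, and 144 of all genes. The log2 fold change was below 0 in 243 of the 367, against 7121 of all 13872. The median log2 fold change was -0.23 (quartiles -0.94 to 0.16) against -0.01 over all genes tested. It was -0.119 for genes with a mean count of at least 20, -0.147 with only the WT and *Ezh2* KO libraries in the fit and -0.148 with no filter. Genes near other *Ezh2* KO peaks only had a median of -0.18, with 12 of 1401 called, and the 134 genes with no other *Ezh2* KO peak nearby had a median of -0.12, with 3 called. The 32 tested genes at new peaks on X had a median of -0.61, with 2 called. All 502 tested genes of X had -0.08, with 3 called.

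*Smoc1*, which encodes a secreted calcium-binding protein of the extracellular matrix, had 378 and 348 normalized counts in WT, against 123 and 119.02 in *Ezh2* KO cells. Both *Ezh2* KO libraries were below both WT libraries, and the fall was -1.57 ± 0.19 on the log2 scale (SE, limma adjusted p = 0.0124). The *Ezh1/2* dKO libraries (187 and 229) and the *Ezh2* Y726D libraries (241 and 257) lay in between. Its promoter peak, on chromosome 12 (82127873-82129131), had a -log10 p of only 11.3 but its summit window, printed above, held 23 CG, and the peak was also in the *Ezh2* R685C list.

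*Prps2*, an X-linked enzyme of nucleotide synthesis, had 651 and 460 normalized counts in WT, against 191 and 188 in *Ezh2* KO cells. The groups did not overlap, with a fall of -1.53 ± 0.20 (SE, limma adjusted p = 0.018). The *Ezh1/2* dKO libraries had 562 and 492 and the *Ezh2* Y726D libraries 551 and 670. The strongest of its 2 new peaks lay over the promoter (X 163819540-163820571), 1412777 bp from the nearest WT peak, with a -log10 p of 14.1 and an overlapping peak of 14.1 in the *Ezh2* R685C list.

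*Shroom4*, also on X and encoding an actin-binding protein, had 29.4 and 26.0 normalized counts in WT, against 1.05 and 0.968 in *Ezh2* KO cells, the worth of 1 read each. The fall of -3.83 ± 0.48 (SE, limma adjusted p = 0.0164) was well beyond the spread of either group. The *Ezh1/2* dKO libraries had 24.7 and 16.0 and the *Ezh2* Y726D libraries 26.8 and 22.4, all far above *Ezh2* KO. It had 3 new peaks within 5 kb of a TSS, the strongest with a -log10 p of 11.8, and another *Ezh2* KO peak nearby.

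These 3 calls were lost in the fits without WT replicate 1, *Ezh2* KO replicate 1 or *Ezh2* KO replicate 2, with limma adjusted p-values from 0.101 to 0.183. Their log2 fold changes there ran from -1.60 to -1.51 for *Smoc1*, -1.54 to -1.28 for *Prps2* and -3.86 to -3.75 for *Shroom4*.

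The other 3 called genes were of low level and were lost in the same fits. All 3 were also lost with edgeR (adjusted p of 0.121 to 0.143), with the replicate number as a block (limma adjusted p of 0.105 to 0.143), with quantile normalization, with no filter and with only the WT and *Ezh2* KO libraries. *Inpp4b* and *Trib2* were lost with a pseudocount of 5 as well (limma adjusted p of 0.178 and 0.159). DESeq2 kept *Dux* and *Inpp4b* (adjusted p of 0.0137 and 0.00429) and lost *Trib2* (0.129). *Inpp4b*, a phosphatase of inositol lipids, had 42.7 and 8.67 normalized counts in WT and 0 in both *Ezh2* KO libraries (adjusted p = 0.0633 with limma). The WT libraries lay far apart, so no fold is given for it. *Dux*, a homeobox factor of the cleavage-stage embryo, had 36.0 and 23.1 in WT, against 0 and 2.90 in *Ezh2* KO cells (log2 fold change -3.92 ± 0.69, SE, limma adjusted p = 0.083). *Dux* lies in near-identical repeat copies, so both its reads and its peak are uncertain. *Trib2*, a pseudokinase, had 20.01 and 12.5 in WT, against 1.05 and 1.94 in *Ezh2* KO cells (-2.78 ± 0.505, SE, limma adjusted p = 0.086). *Inpp4b* and *Dux* were also low in *Ezh2* Y726D cells, at 4.46 and 3.36 for the first and 5.35 and 3.36 for the second, but not in *Ezh1/2* dKO cells, at 51.1 and 63.0 and at 48.6 and 63.0. *Trib2* was at 23.1 and 27.5 in *Ezh1/2* dKO and 29.4 and 43.6 in *Ezh2* Y726D cells.

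**Figure D5:**
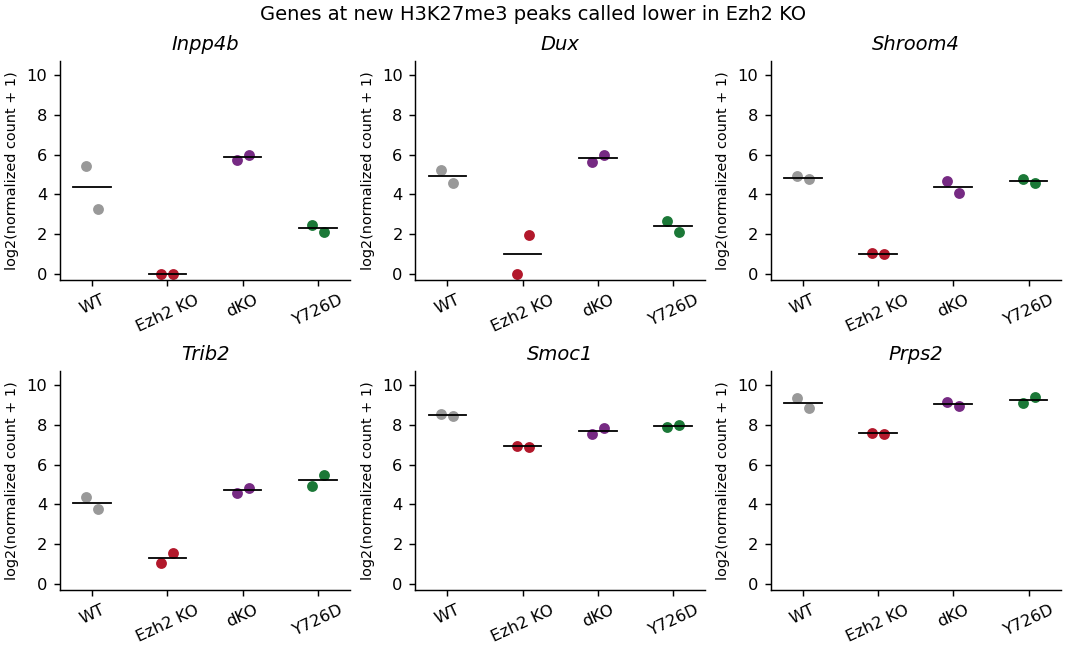
RNA levels of the 6 called genes, as log2 of the normalized count plus 1, in the 2 libraries (points) of each line with their mean (line). In each gene both *Ezh2* KO libraries sat below both WT libraries.

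None of the genes with the largest rises passed the test. *Cntln*, a centrosome gene, had a log2 fold change of 2.32 and *Tbx15*, a T-box factor of the skeleton, of 2.26 (limma adjusted p of 0.407 and 0.213). *Cntln* had 0 and 4.81 normalized counts in WT, against 11.5 and 10.6 in *Ezh2* KO cells, and *Tbx15* had 1.33 and 5.78 and then 20.9 and 15.5. *Col23a1*, *Cdh22* and *Sstr2* followed with 1.58, 1.53 and 1.51. Among the largest falls, *E130309D14Rik* (-3.01, adjusted p = 0.327 by limma) and *B3gnt3*, a glycosyltransferase (-2.99, limma adjusted p = 0.37), were not called either.

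The genes at the strongest new peaks did not pass the test. *Slc25a4* had 926 and 673 normalized counts in WT, against 500 and 727 in *Ezh2* KO cells (log2 fold change -0.39 ± 0.21, SE, limma adjusted p = 0.655), so the groups overlapped. *Zfp516* had 756 and 873 in WT, against 834 and 972 in *Ezh2* KO cells (0.15 ± 0.23, SE, limma adjusted p = 0.894). *Hspa1b* (-1.54), *Tmem125* (0.45), *Repin1* (-0.38), *N6amt2* (0.12) and *Il17d* (0.59) had adjusted p-values from 0.622 to 0.944 in limma.

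The genes at the groups of new peaks, named after these groups were seen, were also not called. *Cdkn1c* had 32.0 and 26.96 normalized counts in WT, against 6.27 and 5.81 in *Ezh2* KO cells, without overlap (-2.11 ± 0.63, SE, limma adjusted p = 0.317). *Lef1* had 133 and 65.5 and then 32.4 and 34.8 (-1.45, limma adjusted p = 0.368), again without overlap. *Kif21a* had 28.0 and 28.9 in WT, against 10.46 and 7.74 in *Ezh2* KO cells (-1.56, limma adjusted p = 0.449). *Trio* (-1.23, limma adjusted p = 0.307), *Nhsl2* (-0.81), *Efnb1* (-0.71) and *Tfap2c*, the present symbol of *Tcfap2c* (-0.56), also had log2 fold changes below 0. Those of *Ift88* (0.72, limma adjusted p = 0.472), a cilium gene in the group at *Il17d*, and of *Peg12* (0.47, limma adjusted p = 0.817) were above 0. *Kcnq1* and *Stk32c* were below the filter and were not tested.

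Of the gene lists, the imprinted genes had 25 tested members and *Plagl1* alone was called, lower, a gene with no new peak near its TSS. *Gnas* had 647 and 616 normalized counts in WT, against 392 and 320 in *Ezh2* KO cells (-0.83, limma adjusted p = 0.276). Of 14 germline genes tested, *Brdt*, a bromodomain gene of the testis, alone was called, higher, and it had no new peak either, while *Dazl* (0.02), *Ddx4* (-0.34) and *Mael* (0.00) had log2 fold changes near 0. Of the 12 PRC2 subunits, *Ezh2* alone was called, lower. The developmental and tandem families had 0 genes called.

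In the lines without active PRC2, most of the genes called at new peaks rose. The filter used the mean of all 8 libraries, so a gene low in WT could enter through high counts in these lines. With the WT and *Ezh2* KO libraries only, 312 genes at new peaks passed it. The counts and medians below lean on such genes to an unknown degree, and a fit without them was not run. In *Ezh1/2* dKO cells, 4.02% of all genes tested were called, and at new peaks 42 of 367 (11.4%), of which 41 rose (3.63% of all genes did). The median log2 fold change of the 367 was 0.76 against 0.01 over all genes. In *Ezh2* Y726D cells, 2.72% of all genes were called, and at new peaks 27 (7.36%), with 23 rises (1.66% of all genes) and 4 falls, and a median of 0.34 against -0.01. Genes near other *Ezh2* KO peaks only had 184 of 1401 called in *Ezh1/2* dKO (median 0.81) and 110 in *Ezh2* Y726D cells (median 0.50). The comparisons of the 3 lines share the WT libraries, so they are set side by side. Among single genes, *Dazl* had 397 and 426 normalized counts in *Ezh1/2* dKO cells, 219 and 93.4 in the WT libraries and 172 and 122 in those of *Ezh2* KO, and in *Ezh2* Y726D cells it had 200 and 254 (log2 fold change 0.65, limma adjusted p = 0.472). Its log2 fold change in *Ezh1/2* dKO cells was 1.52 (limma adjusted p = 0.0628). *Sfmbt2*, an imprinted Polycomb-related gene, had 863 and 937 in *Ezh1/2* dKO cells, 303 and 196 in the WT libraries and 377 and 435 in those of *Ezh2* KO. It had 670 and 513 in *Ezh2* Y726D cells (log2 fold change 1.27, limma adjusted p = 0.0324), and its log2 fold change in *Ezh1/2* dKO cells was 1.88 (limma adjusted p = 0.0075). For both genes the *Ezh1/2* dKO libraries were the highest of all 8.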

How the data were processed

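By the study's methods and the submitters' processing notes, Bowtie placed the reads of ChIP-seq and ATAC-seq on mm9, Picard took out duplicates, and the authors' peaks are MACS2 calls. The deposited peak lists give for each peak a fold enrichment and a -log10 p-value, and the HA lists hold positions only. The study's methods do not name the control that MACS2 used for these values. Whether replicates were pooled is not given in the sources used here, the read depth behind each list is unknown, and the scaling to spike-in chromatin does not enter the lists. Peaks of H3K27me3, SUZ12 and H3K27ac all have a p of at most 1e-10. The broad H3K27me1, H3K27me2 and ATAC-seq regions were used as deposited and start at a far laxer -log10 p of 1.00 to 1.01. H3K27me2 and H3K27me1 were compared on the chromosomes held by all 4 lists.

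For RNA-seq the authors used TopHat, HTSeq-count and DESeq2, and the deposited signal is normalized counts per gene and library, of which 100% divide into whole reads by the lowest value in the same library (tolerance 0.01). Counting ignored strand, by the study's methods, so reads of overlapping and antisense genes cannot be told apart. Tables of the authors' log2 fold changes and p-values and duplicate copies of files were not used. Samples whose names give Y726D but no *Ezh1* deletion were used as the *Ezh2* Y726D line.

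Peaks were compared with Python 3.11.15, numpy 2.4.6, scipy 1.17.1, pandas 2.3.3 and pysam 0.24.0, with an overlap of 1 bp, on chromosomes 1 to 19, X and Y. Figures used matplotlib 3.10.9. Sequences and genes came from NCBIM37 (mm9) and GENCODE vM1. Of 18055 genes in the RNA table, 16570 matched by symbol, 854 by synonym and 631 not. Tests used limma 3.58.1 in R 4.3.3 (linear fit with trend, log2 after adding 1 to normalized counts, 8 libraries in a single fit, mean of at least 5, Benjamini-Hochberg adjustment over all 13872 genes), so fold changes of low genes are understated. edgeR 4.0.16 and DESeq2 1.42.0 on the recovered reads, other pseudocounts, filters and windows were alternatives. In data simulated for *Ezh2* KO against WT (13202 genes), 145 of 200 genes changed 4-fold were recovered (72.5%), with 4 other calls. The simulation gave every gene the same dispersion, and recovery at the calling limit, a log2 fold change of 1, was not measured.

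Named peaks were the 10 strongest, the 10 in most other lists, the 3 weakest and the 5 farthest from WT H3K27me3. Named genes were those called, the 5 largest rises and falls, those at named peaks and those of the gene lists. The new peaks and the lists were chosen with earlier results of these data known.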

Additional observations from a re-analysis of the deposited data

How the results depend on the processing

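Of the values given for the comparisons, 24 stayed within 1 SD, their interval or 1.5 times under the alternatives and 43 moved. Restricting the *Ezh2* KO list to a p of at most 1e-20 left 472 new peaks, and requiring 1 kb to every excluding peak left 1520. Over these and the rules without the *Ezh2* Y726D list, with only the strongest WT peaks, and with exclusion only where 0.5 of the peak overlapped, the share near a TSS was 47.0%, 30.4%, 32.3%, 41.3% and 42.4%. It was 20.5% with a 1 kb window and 33.5% for protein-coding genes. The *Ezh2* R685C share was 59.1%, 41.7%, 38.6% and 48.7% for the first 4 rules and 36.4% with an overlap of 0.5 of the peak. SUZ12 in any mutant line reached 4.45% at 1e-20 and 0.808% with that overlap. HA-EZH1 gave 1.91% at 1e-20, 0.0658% at 1 kb and 0.255% with that overlap. *Ezh2* KO H3K27ac within 1 kb gave 1.02%. Coverage of new peaks in *Ezh2* KO cells was 55.8% for H3K27me2 blocks, 41.3% for the stronger 0.5 of the regions by -log10 p and 0.123% for the blocks of H3K27me1, and 30.4% and 0.766% for those of ATAC-seq.

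In RNA-seq, 3 genes were called in place of 6 with no filter, quantile normalization, edgeR, only the WT and *Ezh2* KO libraries, and a 1 kb window. The fit with the replicate number as a block also called 3 (*Prps2*, *Shroom4* and *Smoc1*) and left the median at -0.233. Same-numbered libraries deviated with correlations of -0.409 to 0.288 across lines. These signs are mixed, so they do not settle whether a batch linked libraries under the same or other numbers. Without 1 library, the fits called 0 to 13 genes with a median of -0.29 to -0.165, and 2 of the 13 called without WT replicate 2 were higher. The lone remaining library of that line is then assumed to vary like those of the other groups. The median was -0.174 with a pseudocount of 5, -0.148 with no filter, -0.119 at a mean of at least 20, -0.179 with quantile normalization, -0.147 with WT and *Ezh2* KO libraries only and -0.195 for gene bodies. Of the named genes, 5 changed sign, none of them called. Over the fits without 1 library, log2 fold changes ran from -0.29 to 3.36 for *Cdh22*, -0.00 to 3.17 for *Col23a1*, -0.43 to 0.68 for *N6amt2*, -0.82 to 0.07 for *Repin1* and -0.60 to 1.49 for *Tmem125*. The causes were not tested.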
